A study of Avicennia officinalis with 4 samples.

Results

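Among the genes that the study assigned to defense and stress in roots of the mangrove tree Avicennia officinalis are 2 cytochrome P450 unigenes listed with opposite changes under salt. These are cytochrome P450 94A1 (Ug124338, Unigene124338_All in the table, 1652 bp), listed as up-regulated, and cytochrome P450 78A3 (Ug9466, Unigene9466_All, 1023 bp), listed as down-regulated. Both were taken by their number from the deposited table of 168308 unigenes, transcripts assembled from the reads without a genome. Salt-treated seedlings had received 500 mM NaCl for 24 h in diluted Hoagland's nutrient solution, and control seedlings none. All plants were 2 months old, raised without NaCl and moved to sand before the treatment. Each group had 2 mRNA-sequencing libraries, numbered replicates 1 and 2, and each library was made from the whole roots of 3 plants. In such bulk samples, fewer cells of a type and less RNA per cell cannot be told apart. The table carries no gene names, so the tissue could not be checked against markers, and the P450 names are those of the study. It annotated its unigenes by searches of protein databases. Separately, it aligned each of these 2 with a rice gene, at scores among the lowest that it lists.

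Cytochrome P450s are heme enzymes of the endoplasmic reticulum that insert an oxygen atom into small molecules, and plants hold large families of them. CYP94A1, first described in vetch (Vicia sativa), hydroxylates the end of fatty acid chains, a step that also leads to the monomers of cutin and suberin. Suberin is the hydrophobic polymer that seals the endodermis and outer layers of roots, and other CYP94 enzymes of Arabidopsis inactivate the hormone jasmonate. CYP78A enzymes are specific to plants. In Arabidopsis the member KLUH promotes the growth of organs, and the substrate of the family is not well known.

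The tested unigenes held 16943847 to 22074032 reads of each library. Where a library shows 0 reads, up to 3 may have been missed, which is 0.134 to 0.175 CPM (reads relative to the library total) and covers counting error only. RPKM is CPM per kilobase of unigene. Both P450 unigenes had reads in all 4 libraries and were among the 62900 unigenes with enough reads to be tested. They were chosen by the study for their change in these same libraries, so their values under salt are given as a description without a test.

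P450 94A1 was a rare transcript in the control and a moderate one under salt. It had 84 and 60 reads in salt-treated replicates 1 and 2, against 6 reads in each control library. This gave an RPKM of 2.34 and 2.12 in the salt-treated roots, against 0.162 and 0.204 in the control. The means were 2.23 ± 0.15 RPKM in the salt-treated roots and 0.183 ± 0.030 RPKM in the control (SD, n = 2 libraries each). Both salt-treated libraries lay far above both control libraries, and the 2 libraries of a group lay close together. A separation of the groups in this direction was found for 8.1% of all tested unigenes. In rank, the unigene lay above 67.7% and 64.4% of the unigenes with reads in the salt-treated libraries, and above 12.2% and 13.4% in the control libraries.

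P450 78A3 was lower under salt within each replicate number, on levels that differed strongly between the numbers. It had 14 and 69 reads in salt-treated replicates 1 and 2, against 58 and 363 in control replicates 1 and 2. The RPKM was 0.629 and 3.94 in the salt-treated roots, against 2.53 and 19.9 in the control. The groups overlapped, since salt-treated replicate 2 was higher than control replicate 1. Of all tested unigenes, 8.09% had both salt-treated libraries below both control libraries. The means of 2.28 ± 2.34 RPKM in the salt-treated roots and 11.2 ± 12.3 RPKM in the control (SD, n = 2 each) had spreads larger than themselves. Control replicate 2 was the highest library, where the unigene lay above 94.8% of those with reads, and salt-treated replicate 1 the lowest, where it lay above 37.6%.

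**Figure D1:**
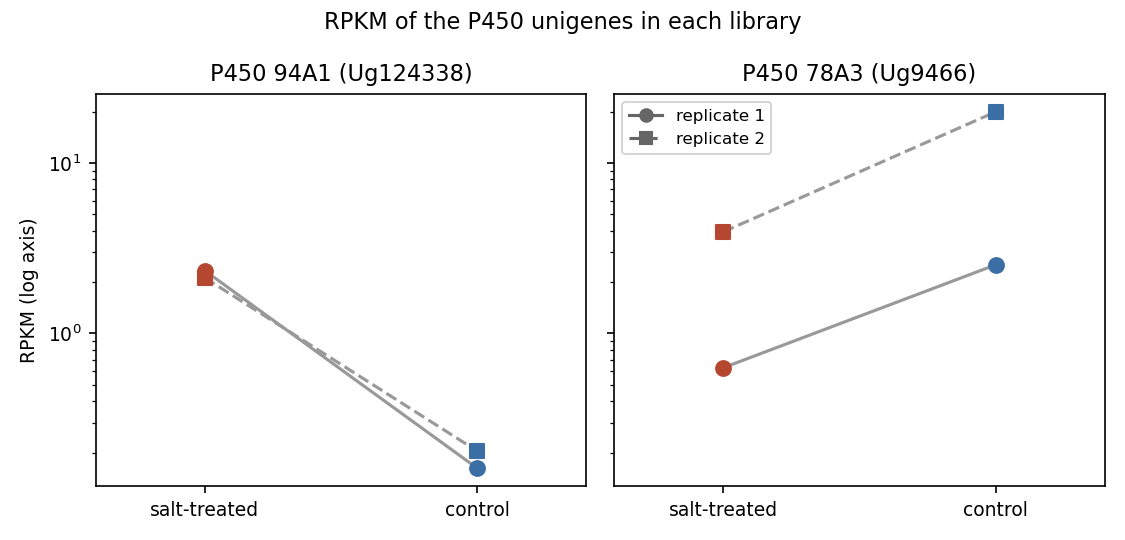
RPKM (log axis) of P450 94A1 and P450 78A3 in the 4 libraries, with salt-treated on the left and control on the right of each panel. Lines join libraries of the same replicate number. P450 94A1 was above 2.1 RPKM in both salt-treated libraries and at most 0.204 in the control, whereas P450 78A3 was at 0.629 and 3.94 RPKM under salt and at 2.53 and 19.9 in the control.

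Within each replicate number, the salt-treated library was compared with the control library on TMM-normalized reads, with exact 95% intervals that cover counting error only. For P450 94A1 the log2 ratio of salt to control was 3.78 (2.60 to 5.27) in replicate 1 and 3.37 (2.17 to 4.87) in replicate 2, or 13.7- and 10.3-fold higher. These intervals are wide, since only 6 reads stand in each denominator. For P450 78A3 the log2 ratio was -2.08 (-3.04 to -1.22) in replicate 1 and -2.35 (-2.74 to -1.97) in replicate 2, or 4.22- and 5.08-fold lower. In both unigenes the intervals of replicates 1 and 2 overlapped. A difference in the size of the response between the replicate numbers was not tested.

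The order of the transcripts per length depended on the library. In salt-treated replicate 1, P450 94A1 had 3.72 times the RPKM of P450 78A3. In all other libraries P450 78A3 was the higher one, by 1.86 times in salt-treated replicate 2, against 15.6 times in control replicate 1 and 97.7 times in control replicate 2. The log2 ratio of 94A1 to 78A3 was therefore 1.89 and -0.89 in the salt-treated libraries, against -3.96 and -6.61 in the control libraries. The P450 unigenes were chosen for opposite changes in these same libraries, so a lower ratio in the control follows from the choice.

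The fit across all tested unigenes (edgeR's quasi-likelihood test, condition as the only term) gave a log2 fold change of 3.54 (standard error 0.63) for P450 94A1 and of -2.32 (standard error 1.33) for P450 78A3. At an adjusted p of 0.05 (Benjamini-Hochberg), edgeR called 0 of the 62900 tested unigenes, or 0%, and neither P450. Without adjustment, 129 unigenes had a p under 0.05, far fewer than this threshold would pass without any difference. The fit counts differences between the replicate numbers as error. Its biological coefficient of variation, the spread between libraries, was 0.67, against 0.34 with a term for the number. With that term the standard error of P450 78A3 was 0.37. The 0 calls therefore do not show that salt changed no unigene. DESeq2 with the same single term called 2 unigenes (0.00318%), neither of them a P450 of this pair. When single libraries were left out, the fold change of P450 94A1 stayed between 3.37 and 3.73. That of P450 78A3 was -0.15 without control replicate 2, -1.51 without salt-treated replicate 1, -3.15 without control replicate 1 and -4.24 without salt-treated replicate 2. It was thus near 0 without the control library that held 363 reads. These fits have no term for the replicate number, which is then unequal between the groups.

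**Figure D2:**
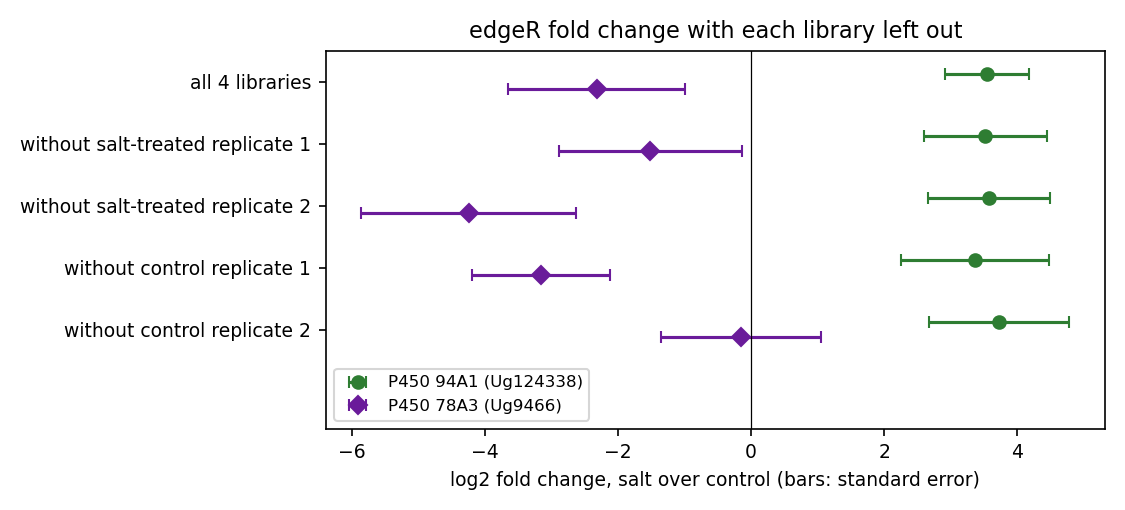
Log2 fold change of salt over control from edgeR for both P450 unigenes with all 4 libraries and with each library left out, with bars of 1 standard error. P450 94A1 stayed between 3.37 and 3.73, while P450 78A3 spread over -4.24 to -0.15.

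The replicate number itself was not used to choose these unigenes, and the difference between the numbers was tested in a fit with condition and replicate number as terms. A choice on the change under salt in these libraries can still favour unigenes with most of their reads in 1 library. The test is therefore not fully independent of the choice. P450 78A3 was higher in the libraries numbered 2 than in those numbered 1, with a log2 fold change of 2.89 (standard error 0.38) and an adjusted p of 0.00828 in edgeR's quasi-likelihood test. Of all tested unigenes, 10.6% were called in this comparison, 5.8% as higher in number 2. The difference was present in both conditions, at 6.73-fold in the salt-treated and 8.10-fold in the control libraries. P450 94A1 differed by 0.09 on the log2 scale between the numbers, with a standard error of 0.49 and an adjusted p of 0.921 in edgeR. Its log2 ratio of number 2 to number 1 was -0.04 (-0.54 to 0.46, exact counting interval) in the salt-treated and 0.37 (-1.53 to 2.27) in the control libraries. What the number stands for, such as a harvest or a sequencing run, was not stated. Whether the P450 unigenes differ from each other in this respect was not tested.

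Each P450 unigene was then set beside the 1000 tested unigenes nearest to it in rank of mean CPM, which is a description of these libraries and no test. Ratios were taken with 0.5 reads added. A pair of libraries without reads thus counts as slightly lower in replicate 1 (-0.028) and slightly higher in replicate 2 (0.049). The 1000 unigenes near P450 94A1 had a mean of 1.93 to 2.05 CPM. Their log2 ratio of salt to control had a median of -0.003 in replicate 1, with the 5th and 95th percentiles at -1.26 and 1.07, and of -0.06 in replicate 2, with percentiles of -1.67 and 1.43. The values of 3.67 and 3.27 of P450 94A1 lay outside these ranges. In replicate 1 alone, 1 of the 1000 had a ratio as high, and in replicate 2 alone 4 did. None of the 1000 reached 3.27 in both replicates (0%, 95% Wilson interval 0 to 0.383%), although 21.9% were higher in both. The mean CPM of P450 94A1 itself rests mostly on its salt-treated libraries. When the 1000 unigenes were instead taken by their mean CPM in the control, at 0.220 to 0.350 CPM, their median log2 ratios were 0.71 and 1.23, and 68.3% were higher in both replicates. The ratio of P450 94A1 in replicate 1 then still lay above the 95th percentile of 2.91, but its ratio in replicate 2 lay below that of 4.14. In replicate 1 alone 31 unigenes had a ratio as high and in replicate 2 alone 87, and none reached 3.27 in both. Unigenes at this control level could have enough reads to be tested only with the help of a salt-treated library, as P450 94A1 did. The medians and the 68.3% were therefore set in part by this requirement.

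The 1000 unigenes near P450 78A3 had a mean of 6.79 to 7.55 CPM. P450 78A3 had log2 ratios of -2.04 and -2.34, against 5th and 95th percentiles among these unigenes of -0.78 and 0.67 in replicate 1 and of -1.54 and 1.18 in replicate 2. A ratio of -2.04 or lower in both replicates was found for 11 of them (1.1%, 95% Wilson interval 0.615 to 1.96%). All 11 had 0 reads in a salt-treated library and most of their control reads in 1 library, so that their ratios rest in part on the added 0.5 reads. In 9 of them control replicate 1 held 543 to 639 reads and control replicate 2 held 2 to 11, and in the other 2 control replicate 2 held 439 or 441 and control replicate 1 held 10 or 12. P450 78A3 differed from these in having at least 14 reads in every library. The ratios of replicates 1 and 2 also lay close together in both P450 unigenes, 0.40 apart for 94A1 and 0.30 apart for 78A3. The median distance was 0.76 and 0.48 among their neighbours, and 71.4% and 70.1% of these had a larger one.

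**Figure D3:**
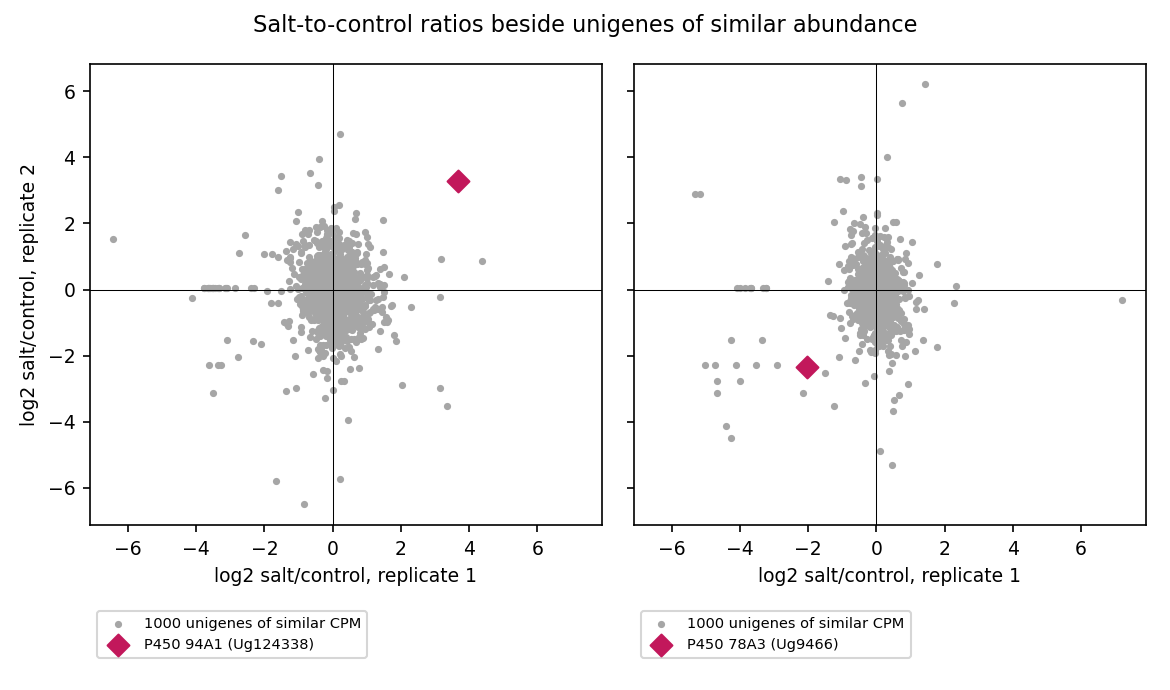
Log2 ratio of salt to control in replicate 1 (horizontal) and replicate 2 (vertical), with 0.5 reads added, for each P450 unigene (diamond) and its 1000 tested neighbours in mean CPM (grey points). P450 94A1 stands alone at 3.67 and 3.27, and P450 78A3 at -2.04 and -2.34 has 11 neighbours at -2.04 or lower in both replicates.

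Unigenes with the most similar profile over the 4 libraries were found by the root mean square difference of log2 CPM, centred on each unigene's own mean. The profile has only 4 points, and the measure says nothing of shared function. The unigenes nearest to P450 94A1 were Ug19454 at 0.43 and Ug148722 at 0.44 log2 units, which the table does not name. Among the unigenes named by the study, cationic peroxidase 1 (Ug74595) came first at 0.75. It had 9703 and 9827 reads in salt-treated replicates 1 and 2, against 2890 and 1893 in the control, higher within each number and close between replicates, as P450 94A1 was. A CCCH zinc finger unigene (Ug66562), with 15 and 20 reads under salt against 4 in each control library, followed at 0.80. Monosaccharide-sensing protein 2 (Ug2927), a sugar transporter of the vacuolar membrane, had 24 and 10 reads under salt against 6 and 2 in the control and lay at 0.92.

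The profile of P450 78A3 was met more closely. Ug26890, without a name in the table, lay at 0.10, with 5 and 25 reads in salt-treated replicates 1 and 2 against 18 and 125 in the control. Ug25559 followed at 0.14. All of the nearest unigenes named by the study were transcription factors listed as down-regulated, at ranks 5, 23 and 39 of 62899. Many of the named unigenes came from the study's list of transcription factors, and the profile sought was that of a down-listed unigene. Both traits therefore follow in part from the pool and the search. The bZIP unigene Ug59417 lay at 0.25 and had 20 and 81 reads under salt against 51 and 386 in the control. The GATA unigene Ug10919 (0.32) had 3 and 27 reads under salt against 16 and 149. In the ERF unigene Ug20505 (0.38) there were 115 and 412 against 222 and 1993. The bZIP and ERF unigenes fell less in replicate 1 than in replicate 2, whereas P450 78A3 fell by similar ratios in both. In each of them, as in P450 78A3, both libraries numbered 2 exceeded their counterparts numbered 1. The P450 unigenes differed from each other by 3.13 on this scale.

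**Figure D4:**
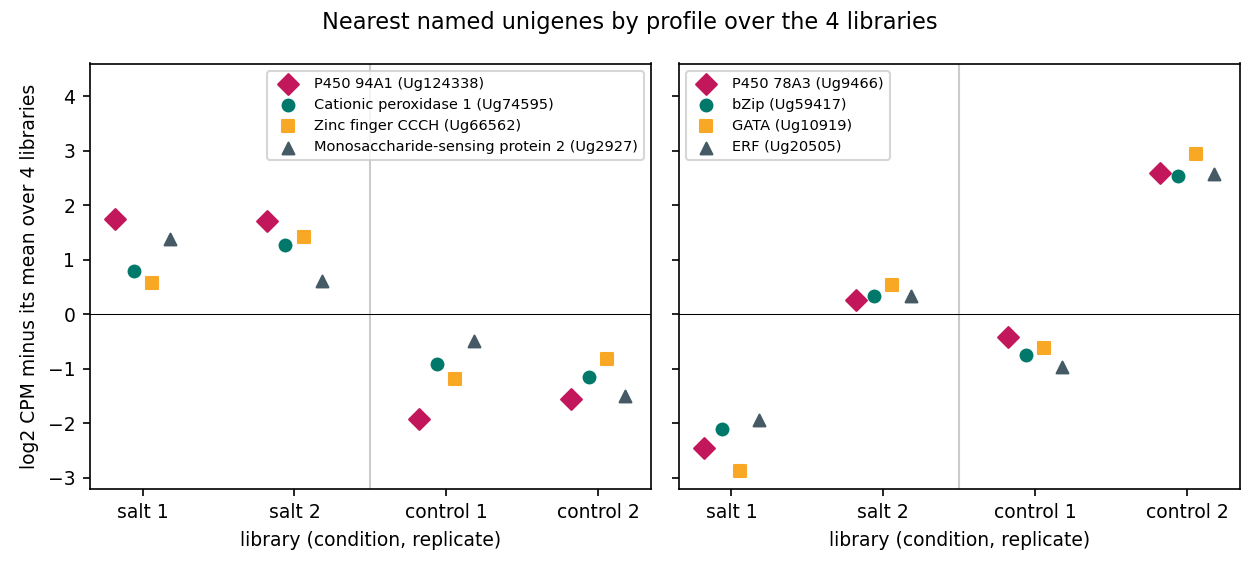
Log2 CPM minus its mean over the 4 libraries for each P450 unigene and the 3 named unigenes nearest to it, with salt-treated libraries to the left of control libraries. Left, P450 94A1 and its neighbours separate by condition. Right, P450 78A3 and 3 transcription factor unigenes are highest in control replicate 2 and lowest in salt-treated replicate 1.

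The study lists both P450s in a class of 30 defense and stress unigenes, 15 as up- and 15 as down-regulated, drawn up on these libraries, so the directions are not independent evidence. Of the 30, 17 had enough reads to be tested, and edgeR called 0 of them between the conditions, beside the 0% of all unigenes. The median log2 fold change of the 7 tested up-listed unigenes was 2.18 (1.09 to 3.54), with P450 94A1 the highest. The 10 tested down-listed unigenes had a median of -3.17 (-3.98 to -2.15), and P450 78A3 was 8th in size among them. The median of all tested unigenes was -0.004. Among those tested, the ratio went the listed way in both replicate numbers for 5 of the 7 up-listed and 4 of the 10 down-listed unigenes, both P450s included. Of all tested unigenes, 23.2% were higher and 24.6% lower under salt in both numbers. Over the whole class, tested or not, these were 10 up-listed and 8 down-listed unigenes. Another 2 of the up-listed and 6 of the down-listed had no reads in either library of one number and could not meet this count. Between the replicate numbers, edgeR called 10 of the 17 tested unigenes, P450 78A3 included, beside 10.6% of all. The count depends on the tool. DESeq2 called 5 of the 17, beside 5824 of the 62900 tested unigenes. With limma on log2(RPKM + 1) it was 2 of the 17, beside 3480 of all.

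Another 5 unigenes of this class belong to enzymes or carriers of oxidation and reduction. Cationic peroxidase 1, a secreted heme enzyme that oxidizes phenolic compounds with hydrogen peroxide, had an RPKM of 363 and 467 in salt-treated replicates 1 and 2, against 105 and 86.6 in the control. Ferredoxin-3 (Ug112102), an iron-sulfur electron carrier of plastids, had 7 and 22 reads under salt against 1 and 5 in the control, higher within each number. The others were listed as down-regulated. HOTHEAD (Ug138511), which in Arabidopsis acts in the oxidation of long-chain fatty acids and keeps organs from fusing, had no reads under salt, and 1 and 25 reads in the control. D-lactate dehydrogenase (Ug104404), which oxidizes lactate to pyruvate, had 0 and 2 reads under salt against 26 and 12. Homogentisate 1,2-dioxygenase (Ug59429), an enzyme of tyrosine breakdown, had 0 and 2 reads under salt against 16 and 4. The ratios of the last 3 rest in part on the added 0.5 reads.

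**Figure D5:**
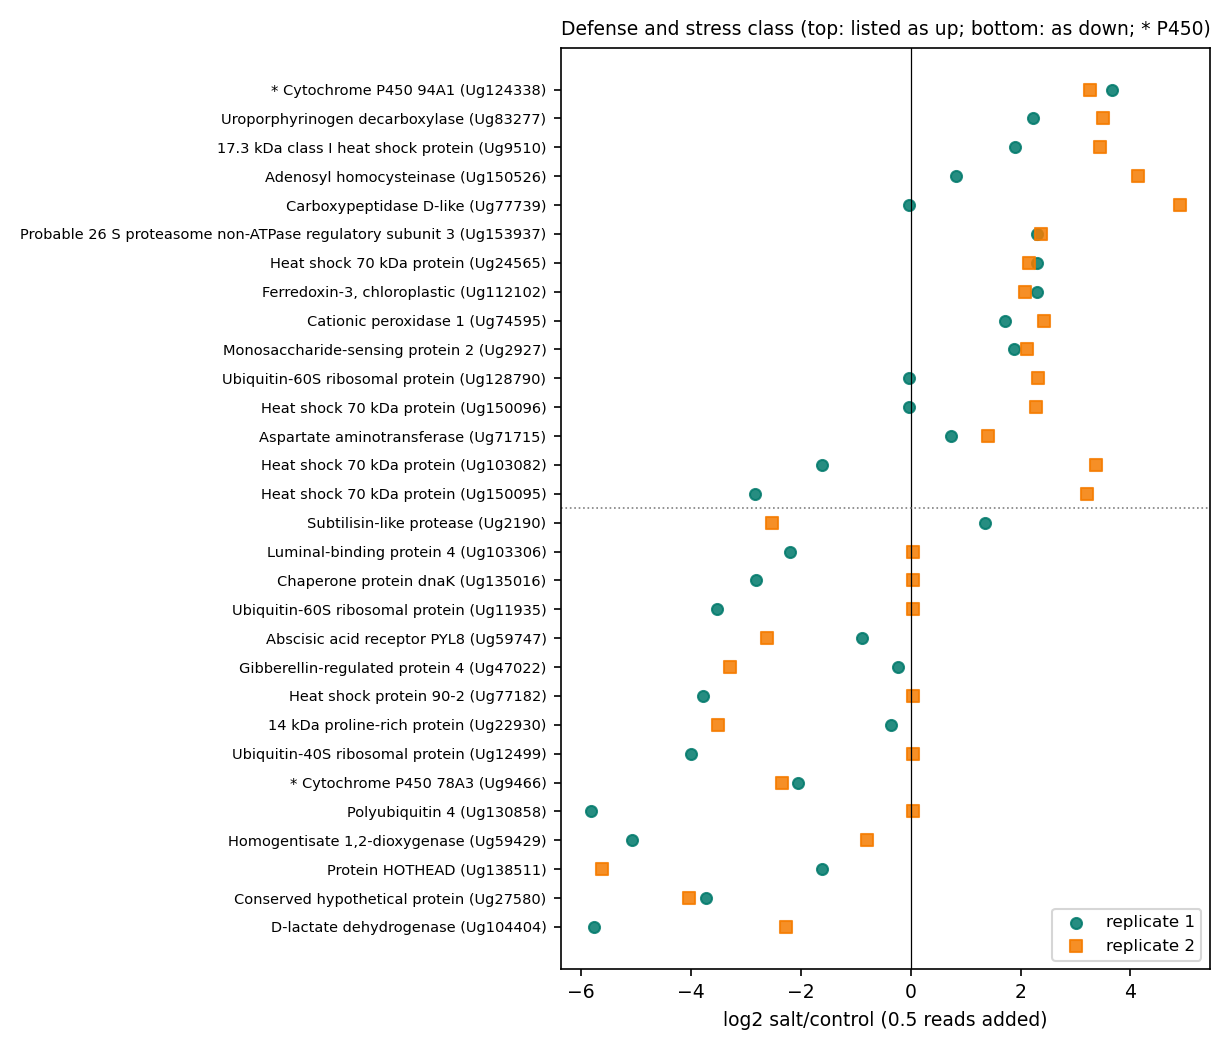
Log2 ratio of salt to control in replicates 1 and 2, with 0.5 reads added, for the 30 defense and stress unigenes, those listed as up-regulated above the dotted line and as down-regulated below it. Asterisks mark the P450s, whose replicates lie 0.40 and 0.30 apart, wider than those of ferredoxin-3 and monosaccharide-sensing protein 2. The ratio went the listed way in both replicate numbers for 10 up-listed and 8 down-listed unigenes, both P450s included. Among these was cationic peroxidase 1 at 1.72 and 2.42. Several of the remaining unigenes lay near 0 in 1 replicate number, where most had no reads in either library.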

How the data were processed

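The data are mRNA-sequencing libraries of roots, 2 salt-treated and 2 control, grouped by their labels. The authors assembled clean reads with Trinity (release 20121005) into unigenes and deposited raw read counts per library and unigene, without normalization, together with RPKM values obtained with SOAP (2.21). These deposited RPKM values equal CPM per kilobase on every unigene, with a largest error of 5e-05. The treatment of multi-mapped reads and of mates was not stated.

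The quasi-likelihood test of edgeR 4.0.16 was run on the counts in R 4.3.3 (TMM, filterByExpr at 10 reads and 15 in total) and Benjamini-Hochberg adjustment over 62900 unigenes. Replicates share no stated origin beyond separate groups of 3 plants. DESeq2 1.42.0 and limma 3.58.1 (log2 of RPKM plus 0.1 or 1), upper quartile factors, plain library sizes, no filter, a filter of 1 CPM in 2 libraries, a term for the replicate number and left out libraries were the alternatives. Ratios came from Python 3.11.15 (scipy 1.17.1, pandas 2.3.3). The test between the conditions was checked on counts simulated without a difference between the replicate numbers, which these libraries have. The check therefore does not show how many changes the test could find here. The members and lists were chosen with earlier results of these data known. Named unigenes were both P450s, the 5 redox unigenes of their class and the 3 nearest profiles among all and among named unigenes. Unigenes without names were printed only for the nearest 2. No sequence was used.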

Additional observations from a re-analysis of the deposited data

How the results depend on the processing

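Between salt and control, edgeR called 0 unigenes under all normalizations and filters tried, in both limma fits and with each library left out (lowest and highest 0). DESeq2 called 2. The replicate numbers are shared by the groups, and deviations from the group means correlated between libraries of the same number (r = 0.70 across 62900 unigenes, which are not independent), but the labels do not say that a number marks a shared origin. With the replicate block edgeR called 0 unigenes and DESeq2 168 of the 62900 tested, 36071 of which had an adjusted p. The 168 held 3 of the 17 tested defense and stress unigenes, which the study listed on these same libraries. For this class, the alternative was chosen after seeing the data. The 168 included P450 94A1 (log2 fold change 3.57, adjusted p = 0.00679) and P450 78A3 (-2.23, adjusted p = 0.00786), which were chosen on this contrast. The fold change of both P450s under salt kept its sign in all 13 alternatives, which reuse the libraries they were chosen on. That of P450 78A3 was near 0 without control replicate 2, at -0.15. Between the replicate numbers, 12424 unigenes were called without a filter, 4283 with limma on log2(RPKM + 0.1) and 3480 on log2(RPKM + 1), against 6682. P450 78A3 passed the threshold in all 7 of these alternatives (adjusted p 3.16e-06 to 0.0488), and P450 94A1 changed sign in the last, at -0.022. The share of similar unigenes that fell as far as P450 78A3 was 0.5% among 200 unigenes, 0.2% when ranked by control CPM and 0.3% with 2 reads added, against 1.1%. That of P450 94A1 was 0% throughout, but the ratios of its neighbours moved with the ranking, in part through the requirement for reads, as given above. Neither share can be computed without a library. A comparison of replicate numbers without a library leaves no residual degrees of freedom. With 2 libraries a group, and 6 control reads for P450 94A1, the size of its change is known only roughly. The counting intervals given above leave out the variation between libraries.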
